A study of Homo sapiens with 6 samples.

Results

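The proteasome genes of HCCLM3 cells, a human hepatocellular carcinoma (HCC) cell line, were compared between cells that overexpressed PON1 (PON1-OE) and negative control cells (NC). The members were taken by name: every row of the deposited count table whose gene symbol began with PSM, a letter from A to G and a number, which gave 50 of the 20381 genes in the table. The PON1-OE group carried a lentivirus with PON1, the gene of the serum enzyme paraoxonase 1, labelled as a stable overexpression, and the NC group carried an empty vector lentivirus, with 3 libraries in each group. Poly(A) RNA was sequenced, and the series text gives RPMI-1640 medium with 15% fetal bovine serum and lysis at 24 h after transfection, while the paper describes selected stable lines and another serum content. Whether the lines were clones or pools, and whether the 3 libraries of a group came from separate cultures, is not stated in the sources used here, so that n counts libraries and the p-values measure the spread between these libraries, which may be technical.

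The proteasome is the protease complex that degrades proteins marked with ubiquitin in the cytosol and nucleus of every cell. Its 20S core is a barrel of rings: the outer alpha rings (PSMA genes) hold the gate, and the inner beta rings (PSMB genes) hold the catalytic sites. The 19S cap (PSMC and PSMD genes) binds the ubiquitin chain, removes it, unfolds the substrate with its ATPase ring and opens the gate. Under interferon, the constitutive catalytic subunits can be exchanged for the immunoproteasome subunits PSMB8, PSMB9 and PSMB10, which changes the peptides offered to MHC class I, and the PSME genes encode activators that dock in place of the 19S cap. When proteasome activity falls, the transcription factor NRF1, encoded by NFE2L1, is known to raise the subunit genes together through antioxidant response elements.

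PON1 was first checked against the labels. It had 0, 2 and 3 counts in NC replicates 1 to 3 and 155, 181 and 167 counts in PON1-OE replicates 1 to 3, or 9.44 to 11.3 CPM with PON1, where CPM are counts scaled to the TMM-normalized size of the library (edgeR's quasi-likelihood test, adjusted p = 2.99e-11, Benjamini-Hochberg). The libraries held 15706672 to 17948383 estimated counts, so that 3 counts, the limit that a count of 0 allows, stood for 0.166 to 0.192 CPM (counting error only). The labels name the cells hepatocytes. KRT8 and KRT18, keratins of liver epithelium, were at 2410.2 ± 199 and 1528 ± 60.9 CPM in NC (SD, n = 3), and the liver transcription factor HNF4A was at 78.6 ± 5.36 CPM. Of the secreted products of hepatocytes, ALB was at 4 to 13 counts per library, APOA1 at 0 to 5, TTR at 0 to 2 and SERPINA1 at 0 to 1. APOB was detected at a low level, at 6.24, 4.86 and 6.22 CPM in NC and 4.81, 3.75 and 4.92 CPM in PON1-OE, and its groups overlapped (log2 fold change -0.36, unadjusted p = 0.0456, adjusted p = 0.443). Of 4 leukocyte markers, PTPRC, CD3E and LYZ had no count in any library, and CD68, which is also a lysosomal gene, was at 213, 226 and 206 CPM in NC and 224, 233 and 248 CPM in PON1-OE (log2 fold change 0.13, unadjusted p = 0.00943, adjusted p = 0.252). The 3 endothelial markers summed to 13.3 to 13.8 CPM in NC and 14.1 to 16.4 CPM in PON1-OE, nearly all of it PECAM1, with CDH5 and VWF near 0, and the 3 fibroblast markers to 3.46 to 4.75 and 4.41 to 6.82 CPM, nearly all of it DCN. In bulk RNA, fewer cells that express a gene and less RNA of it per cell cannot be told apart.

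PON1-OE and NC cells differed little in their proteasome genes. No member passed an adjusted p under 0.05 by edgeR's quasi-likelihood test, where 0.677% of all 11958 genes tested did. Of the 50 members, 48 passed the filter on low counts and were tested, and PSMA8, the alpha subunit of germ cells, and PSMB11, the catalytic subunit of the thymus, had no count in any library. At an unadjusted p under 0.05, 4 of the 48 were called against 11.1% of all genes, all of them higher with PON1 (PSMD7, PSMB8, PSMB1 and PSMD2). The background for calls in the higher direction was 5.91%, and for the lower direction, in which no member was called, 5.17%. DESeq2 gave 0 members at an adjusted p under 0.05 and 2 at an unadjusted p under 0.05, and limma-voom gave 0 and 4. For some members, PSMB8, PSMB9 and PSMB10 among them, DESeq2 gave no adjusted p, so they could not be called there. The shares of all genes with these tools are not given here.

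The estimates were narrow as well as small. The log2 fold change of PON1-OE against NC ran from -0.10 for PSMB5 to 0.18 for PSMB8, with a median of 0.0098 over the members and of -0.0025 over all genes tested. The lowest limit of any member's 95% interval was -0.26 and the highest was 0.34, and 39 of the 48 lay within 0.2 of zero on the log2 scale. All of them therefore lay inside the fold threshold of 0.585 on the log2 scale that the study's methods name. A log2 fold change above 0 was seen in 31 of 48 members (64.6%), against 49% of all genes. This depended on the scaling, and with the total count in place of TMM it was 24 of 48 (50%), against 45.0% of all genes. The members were also expressed at a higher level than most genes, with a median of 109.9 CPM against 28.8 CPM, and varied less between libraries of a group, with a median coefficient of variation of 3.92% against 6.36%.

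**Figure D1:**
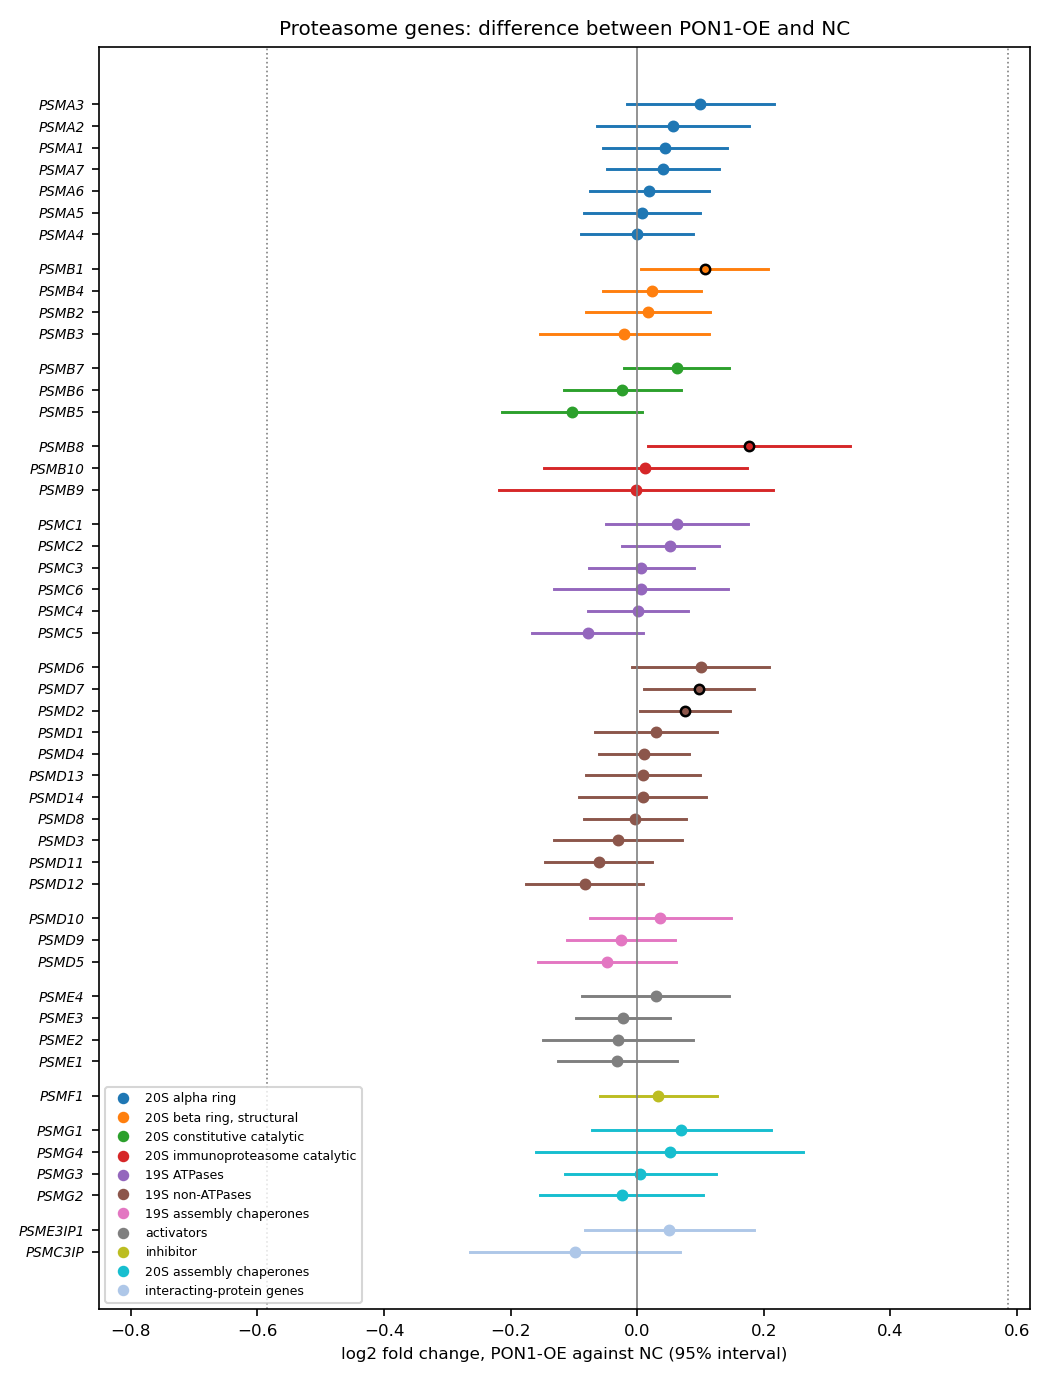
Difference between PON1-OE and NC for the 48 members tested. The horizontal axis gives the log2 fold change with its 95% interval, the vertical axis lists the genes, colours mark the subcomplex, points ringed in black have an unadjusted p under 0.05, and dotted lines mark 0.585 on either side of 0. The points run from -0.10 for PSMB5 to 0.18 for PSMB8, the intervals of the 4 ringed genes lie above 0, and no interval reaches a dotted line.

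The members together took 0.704% to 0.727% of the counts of a library. Summed over the members, the level was 7116, 7054 and 7108 CPM in NC replicates 1 to 3 and 7035, 7341 and 7107 CPM in PON1-OE replicates 1 to 3. The groups overlapped, and PON1-OE replicate 2 stood highest. That library held the highest value of 19 of the 48 members, the most of any library, against 3 for PON1-OE replicate 1 and 11 for PON1-OE replicate 3. Beside the 4 members called at an unadjusted p under 0.05 with all libraries, leaving out NC replicates 1, 2 or 3 gave 1, 3 and 1 in the higher direction, and leaving out PON1-OE replicates 1, 2 or 3 gave 1, 2 and 3. In the lower direction, without PON1-OE replicate 2 there were 3 calls in place of 0, and 1 each without NC replicate 2 or 3. The shares of all genes in these fits are not given here, so the counts cannot be read as particular to the members. Over 13 alternatives, an unadjusted p under 0.05 was found in 10 for PSMD7, in 8 for PSMB8, in 8 for PSMD2 and in 7 for PSMB1.

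The promoters of the members were read for sequences that proteasome genes are known for. The RefSeq promoter table (GRCh38.p14) held 44 of the 50 members, each from 250 bases before to 50 after a transcript start, and PSMA7, PSMB1, PSMB6, PSMB7, PSMD4 and PSMG3 were not matched. The core of an interferon response element, searched on both strands as GAAA, any 2 bases and GAAA again, was found in 7 of 44 members (15.9%), against 3.57% of all 35116 promoters and 4.38% of all genes. These 7 included immunoproteasome subunits and both genes of the interferon-inducible activator, so the windows are shown here beside the expression of these genes below. Each is 30 bases, 5′ to 3′ on the strand of its gene, with the match in capitals.
PSMB8 (chr6:32844032-32844061, minus strand): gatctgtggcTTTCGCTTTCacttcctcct
PSMB10 (chr16:67936852-67936881, minus strand): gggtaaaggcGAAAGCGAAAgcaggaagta
PSME1 (chr14:24136189-24136218, plus strand): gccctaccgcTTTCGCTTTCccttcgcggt
PSME2 (chr14:24146619-24146648, minus strand): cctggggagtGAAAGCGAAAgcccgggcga
PSMG4 (chr6:3258904-3258933, plus strand): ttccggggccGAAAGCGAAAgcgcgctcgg
PSMB4 (chr1:151399495-151399524, plus strand): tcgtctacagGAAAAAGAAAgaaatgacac
PSMA4 (chr15:78540155-78540184, plus strand): atagtgaagaGAAAATGAAAggagagcgcc
The same letters, GAAAGCGAAA, stood in PSMB8, PSMB10, PSME1, PSME2 and PSMG4, read on the opposite strand in PSMB8 and PSME1, and in 35 of all promoters (0.0997%). The letters were read off these matches and not searched for beforehand. Their share counts promoters, and the share of genes is not given here. The match began 4 bases before the start in PSMB8, at the downstream one of its 2 RefSeq starts, 21 before in PSMB10, 28 before in PSME2, 33 before in PSMG4 and 6 bases after it in PSME1. PSMB9 held no match in its promoter window. A match is a description of the letters and not a binding site.

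The antioxidant response element core TGACNNNGC, the sequence through which NRF1 acts, was found on either strand in 15 of 44 members (34.1%), against 16.1% of all genes. A choice of matches that lie before a RefSeq start, from members of the core, the ATPase ring and the lid, is shown in capitals. Matches 28, 40 and 34 bases after the start in PSMC4, PSMD1 and PSMD3 are not shown. The PSMA4 match lies 126 bases before a later RefSeq start than that of its GAAA match above.
PSMA4 (chr15:78540650-78540679, plus strand): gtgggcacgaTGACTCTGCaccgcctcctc
PSMB3 (chr17:38752627-38752656, plus strand): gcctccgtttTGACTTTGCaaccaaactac
PSMC5 (chr17:63827654-63827683, plus strand): gaccggatctGCTGTGTCAgcgccgccctc
PSMD3 (chr17:39980760-39980789, plus strand): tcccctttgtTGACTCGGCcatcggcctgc
PSMD12 (chr17:67366723-67366752, minus strand): agacaaaaccTGACGCTGCaggctggagtg
The CCAAT box, searched as CCAAT, was in 22 of 44 members (50%) and in 39.7% of all genes, and the ETS core, searched as CCGGAAG, was in 17 (38.6%) and in 12.2% of all genes. Of the 15 members with the antioxidant response element core, none was called at an unadjusted p under 0.05, against 11.1% of all genes. In these 15, 4 had a log2 fold change above 0 and 11 below 0, from -0.083 for PSMD12 to 0.070 for PSMG1. Over all genes, 49% lay above 0. Of those below 0, PSMA4 (-0.00055), PSMB9 (-0.0020), PSMB3, PSMD9, PSME2 and PSMG2 changed sign in some settings. So did PSMC4 and PSME4 of those above 0. The split by direction was not counted for these members under another scaling, and it was not tested. Of the 7 with the interferon response element core, 1 was called, and 4 lay above 0 and 3 below, from -0.031 for PSME1 to 0.18 for PSMB8. Among members tested, 1 of 21 with the CCAAT box and 1 of 16 with the ETS core was called.

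The alpha ring was described first. PSMA1 to PSMA7 encode its subunits, whose tails close the gate of the core. All 7 were expressed and tested, 6 of them with a log2 fold change above 0, and none was called (median 0.040, from -0.00055 for PSMA4 to 0.099 for PSMA3, lowest adjusted p = 0.542). PSMA3 was at 66.2, 69.2 and 62.7 CPM in NC and at 71.5, 67.5 and 73.4 CPM in PON1-OE, and the groups overlapped. The summed level of the ring was 987 to 1020 CPM in NC and 999.6 to 1051 CPM in PON1-OE.

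Within the alpha ring, the RNA levels were unequal although each subunit enters the complex in equal number. Levels were compared between genes as CPM per kb of transcript, with the length taken as the mean over the gene's transcripts in the GENCODE v29 basic set. PSMA7 was highest, at 293, 304 and 284 CPM per kb in NC and 288, 320.1 and 298 CPM per kb in PON1-OE. PSMA5 was lowest, at 61.96, 59.6 and 58.0 CPM per kb in NC and 57.9, 59.8 and 62.9 CPM per kb in PON1-OE, which left the highest 4.96-fold above the lowest. With the longest transcript as the length the span was 8.17-fold and the lowest gene was PSMA4, and with merged exons it was 7.79-fold and the lowest was PSMA2, so that the place of the lower genes in the order depended on the length used.

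The structural subunits of the beta ring, PSMB1 to PSMB4, have no active site. PSMB1 was at 105, 100.1 and 106 CPM in NC and at 114, 116 and 105.9 CPM in PON1-OE. The lowest PON1-OE library lay within the NC range, so the groups overlapped. The difference was 7.69% (95% interval 0.457% to 15.4%, log2 fold change 0.11, SE 0.048), with an unadjusted p = 0.0379 and an adjusted p = 0.415 by edgeR's quasi-likelihood test. PSMB2, PSMB3 and PSMB4 had log2 fold changes of 0.017, -0.020 and 0.024, with adjusted p-values of 0.932, 0.943 and 0.873.

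The structural beta subunits also spanned a wide range of level per length. PSMB4 had the highest level of all members, at 428, 434 and 445 CPM per kb in NC and 436, 464 and 429 CPM per kb in PON1-OE. PSMB2 had 35.4, 36.1 and 35.4 CPM per kb in NC and 35.5, 38.4 and 34.3 CPM per kb in PON1-OE, 12.2-fold below it. These genes were the highest and the lowest of this group with each of the 3 lengths, at 14.9-fold with the longest transcript and 7.66-fold with merged exons.

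**Figure D2:**
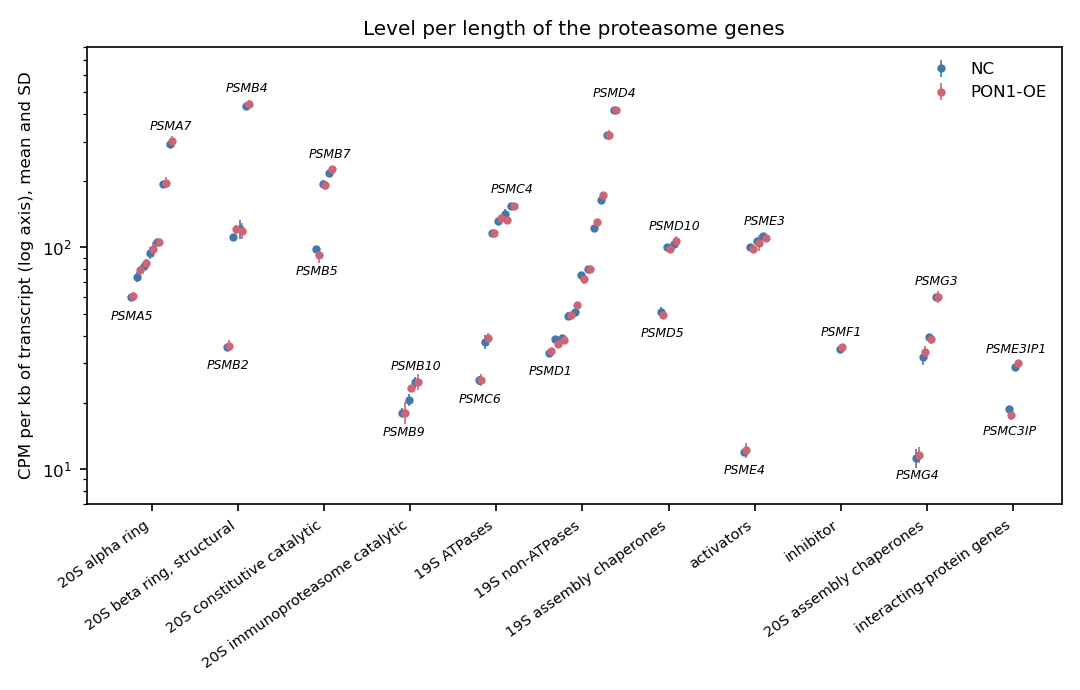
Level per length of the members tested, by subcomplex. The vertical axis gives CPM per kb of transcript on a log axis, points give the mean of 3 NC or 3 PON1-OE libraries with the SD, and the highest and lowest gene of each subcomplex are named. Genes of a subcomplex span up to 12.3-fold, from PSMD1 at 33.7 to PSMD4 at 417, while NC and PON1-OE points of a gene lie together.

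The 3 constitutive catalytic subunits cut after different residues: PSMB6 (beta1) is caspase-like, PSMB7 (beta2) trypsin-like, and PSMB5 (beta5) chymotrypsin-like and the main target of bortezomib. PSMB5 (chr14:23016543-23035230, GRCh38) was at 100.1, 99.6 and 99.8 CPM in NC and at 88.9, 101 and 88.7 CPM in PON1-OE. The NC libraries lay within 1 CPM of each other, and PON1-OE replicate 2 lay above all of them while the other PON1-OE libraries lay below. The log2 fold change was -0.10 (SE 0.053, unadjusted p = 0.0647, adjusted p = 0.489). Without PON1-OE replicate 2 it was -0.17 with an unadjusted p = 0.00213 and an adjusted p = 0.111, the lowest adjusted p of any member under any of the 13 other settings tried.

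PSMB6 was at 162, 165 and 174 CPM in NC and at 165, 172 and 156 CPM in PON1-OE, and its groups overlapped (log2 fold change -0.023, adjusted p = 0.898). PSMB7 was at 209, 219.5 and 208 CPM in NC and at 225, 226 and 214 CPM in PON1-OE (log2 fold change 0.062, adjusted p = 0.608). Its groups overlapped as well, through the lowest PON1-OE library. The summed level of the constitutive catalytic subunits had a mean of 479 in both groups, with an SD of 7.23 CPM over the 3 NC and of 19.7 CPM over the 3 PON1-OE libraries. Per length, PSMB7 was at 221, PSMB6 at 192 and PSMB5 at 95.4 CPM per kb over the 6 libraries.

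The immunoproteasome subunits were detected in every library at a lower level than the constitutive ones, with PSMB10 at 24.7, PSMB8 at 21.9 and PSMB9 at 18.0 CPM per kb. PSMB8 (beta5i, chr6:32840717-32844703, minus strand, GRCh38) was at 22.7, 25.5 and 23.6 CPM in NC and at 27.1, 27.9 and 26.3 CPM in PON1-OE. All 3 PON1-OE libraries lay above all 3 NC libraries. The difference was the largest of any member, at 13.0% (95% interval 1.15% to 26.2%, log2 fold change 0.18, SE 0.077), with an unadjusted p = 0.0322 and an adjusted p = 0.396 by edgeR's quasi-likelihood test. DESeq2 gave an unadjusted p = 0.081 and no adjusted p. PSMB8 overlaps PSMB9 and an antisense gene on the opposite strand, and since strand-specific counting is not stated, reads of these genes cannot be told apart where they overlap.

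The estimates for PSMB9 and PSMB10 lay close to 0. PSMB9 (beta1i, chr6:32844136-32859585, plus strand) was at 13.6, 14.9 and 14.02 CPM in NC and at 15.4, 12.3 and 14.8 CPM in PON1-OE, with the PON1-OE libraries both the highest and the lowest (log2 fold change -0.0020, 95% interval -0.22 to 0.21, adjusted p = 0.996). PSMB10 (beta2i, chr16:67934502-67937087, minus strand) was at 30.8, 28.1 and 31.1 CPM in NC and at 27.6, 31.1 and 32.1 CPM in PON1-OE (log2 fold change 0.013, 95% interval -0.15 to 0.17, adjusted p = 0.973). The intervals of both overlap that of PSMB8, and a difference between the genes in their response was not tested. PSMB10 shares exonic bases with a further gene on its strand, and 3 of its 6 values were not whole numbers.

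**Figure D3:**
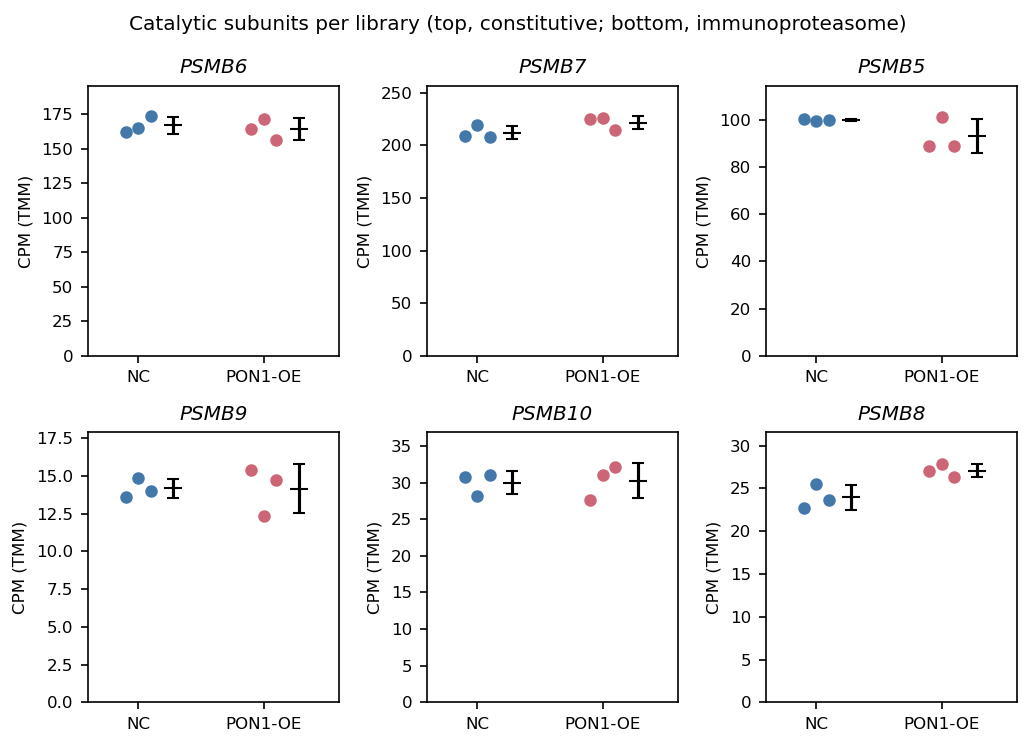
Catalytic subunits in each library. The vertical axes give TMM-normalized CPM from 0, coloured points are the 3 NC and 3 PON1-OE libraries in replicate order, and the black bars give the mean and SD. PSMB8 is the gene here whose groups do not overlap, with 22.7 to 25.5 CPM in NC and 26.3 to 27.9 CPM in PON1-OE, and PSMB5 shows PON1-OE replicate 2 apart from the other PON1-OE libraries.

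Each immunoproteasome subunit takes the place of 1 constitutive subunit, so the levels per length were set in pairs. The constitutive subunit was 10.7-fold above its partner in the beta1 pair, 8.95-fold in the beta2 pair and 4.36-fold in the beta5 pair. These folds depended on the length, and with merged exons they were 24.8, 7.46 and 6.41. In the beta5 pair, PSMB8 made up 16.4%, 18.2% and 17.0% of the sum of PSMB8 and PSMB5 in NC and 20.9%, 19.3% and 20.4% in PON1-OE. The groups did not overlap, at 17.2% ± 0.893 in NC and 20.2% ± 0.831 in PON1-OE (SD, n = 3). Another length scales the ratio of PSMB8 to PSMB5 alike in all libraries, so it cannot change whether the groups overlap. This share was composed after the values were seen and was not tested. It joins the members with the highest and the lowest log2 fold change, and PSMB8 alone already did not overlap. A background share for such ratios is not given here. The share of PSMB9 in the beta1 pair was 7.28% to 9.36% over the 6 libraries (3.27% to 4.26% with merged exons) and that of PSMB10 in the beta2 pair 8.99% to 10.8%, and the groups overlapped in both. These are shares of RNA and not of assembled complexes.

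The regulators of these genes were read beside them. IRF1, an interferon-induced activator of the PSMB8 and PSMB9 genes, was at 129.7 ± 4.2 CPM without and 134 ± 4.83 CPM with PON1 (SD, n = 3, log2 fold change 0.044, adjusted p = 0.794). NLRC5, the transactivator of MHC class I genes, was at 18.3 ± 1.61 and 18.9 ± 1.77 CPM (adjusted p = 0.905). TAP1, the peptide transporter gene next to PSMB9, was at 55.2, 54.7 and 54.9 CPM in NC and at 58.0, 57.3 and 60.2 CPM in PON1-OE, and its groups did not overlap (log2 fold change 0.090, unadjusted p = 0.116, adjusted p = 0.584). Over all genes tested, 16.1% had groups that did not overlap. TAP2 had a log2 fold change of -0.11 with overlapping groups (adjusted p = 0.596).

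The 6 ATPases of the 19S base, PSMC1 to PSMC6, unfold the substrate. Of these, 5 had a log2 fold change above 0, none was called, and the median was 0.0059. The lowest was PSMC5, at 226, 203 and 216 CPM in NC and 203, 207 and 201 CPM in PON1-OE (log2 fold change -0.079, adjusted p = 0.516). The groups of PSMC2, at 312, 304 and 307 CPM in NC and 314, 332 and 313 CPM in PON1-OE, did not overlap, although the nearest libraries of the groups differed by under 1 CPM (log2 fold change 0.052, adjusted p = 0.654). Per length, PSMC4 was highest at 154, 151 and 154 CPM per kb in NC and 154, 158 and 150.2 CPM per kb in PON1-OE. PSMC6 was lowest at 25.1, 24.0 and 26.3 CPM per kb in NC and 23.5, 25.6 and 26.7 CPM per kb in PON1-OE, and both places held with each of the lengths.

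The 11 non-ATPase subunits of the 19S cap held 2 of the 4 members with an unadjusted p under 0.05. PSMD7, which forms a dimer with the deubiquitinase PSMD14 in the lid, was at 135, 137 and 130.4 CPM in NC and at 142, 144 and 145 CPM in PON1-OE. All PON1-OE libraries lay above all NC libraries. The difference was 6.95% (95% interval 0.697% to 13.6%, log2 fold change 0.097, SE 0.042), with an unadjusted p = 0.0306 and an adjusted p = 0.390 by edgeR's quasi-likelihood test, the lowest of the members. PSMD14 itself had a log2 fold change of 0.0087 (adjusted p = 0.971).

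PSMD2, the large scaffold subunit of the base that binds ubiquitin receptors and substrates, was at 486, 464 and 472 CPM in NC and at 499, 506 and 492 CPM in PON1-OE. These groups did not overlap either. The difference was 5.32% (95% interval 0.256% to 10.6%, log2 fold change 0.075, SE 0.034), with an unadjusted p = 0.0401 and an adjusted p = 0.425 by edgeR's quasi-likelihood test. PSMD1, the other large scaffold, had a log2 fold change of 0.030 (adjusted p = 0.872), and PSMD4, a ubiquitin receptor, of 0.011 (adjusted p = 0.943).

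The lid subunit PSMD6 was at 70.7, 67.9 and 70.3 CPM in NC and at 73.7, 77.3 and 72.8 CPM in PON1-OE, without overlap (log2 fold change 0.10, unadjusted p = 0.0667, adjusted p = 0.495). Over all members, the groups did not overlap for 5 in the higher direction (PSMB8, PSMC2, PSMD2, PSMD6 and PSMD7), against 8.32% of all genes, and for 1 in the lower direction (PSMC3IP), against 7.74%. In both directions together this was 6 of 48, or 12.5%, against 16.1% of all genes. The direction depended on the scaling: with CPM of the total count in place of TMM, 8 members did not overlap, 4 higher and 4 lower. The share of all genes without overlap under that scaling is not given here, so these counts have no background. PSMD12 and PSMD11, both of the lid, had log2 fold changes of -0.083 and -0.061 with adjusted p-values of 0.512 and 0.633, and the other 6 subunits lay between -0.031 and 0.030.

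**Figure D4:**
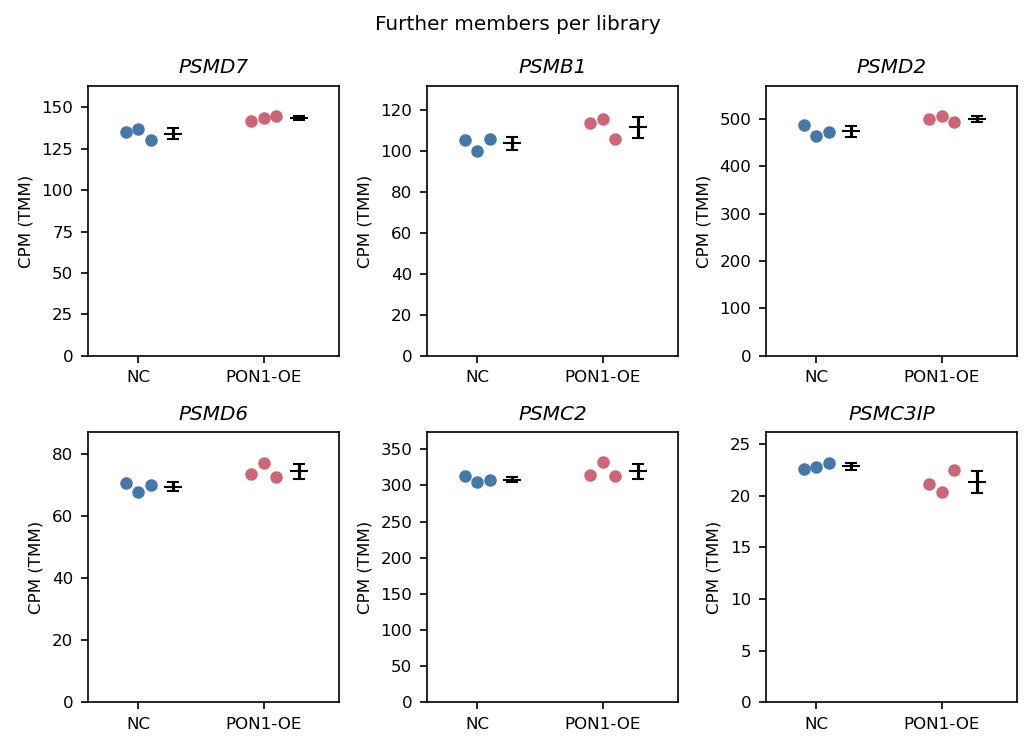
Further members with an unadjusted p under 0.05 or without overlap between the groups. The vertical axes give TMM-normalized CPM from 0, coloured points are the 3 NC and 3 PON1-OE libraries in replicate order, and the black bars give the mean and SD. The gaps between the groups are small against the levels, as for PSMD7 with 130.4 to 137 CPM in NC and 142 to 145 CPM in PON1-OE, and PSMC3IP is the gene here that is lower with PON1.

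Among the non-ATPase subunits, PSMD4 was the highest per length, at 411, 409 and 425 CPM per kb in NC and 411, 430 and 414 CPM per kb in PON1-OE. PSMD1 was the lowest, at 34.4, 33.7 and 32.1 CPM per kb in NC and 34.9, 33.7 and 33.7 CPM per kb in PON1-OE. PSMD4 was highest with each length, and the lowest was PSMD12 with the longest transcript and PSMD6 with merged exons. The 3 chaperones of the 19S base kept under PSMD names were not called, with log2 fold changes of -0.048 for PSMD5, -0.026 for PSMD9 and 0.036 for PSMD10, the last of which is known as gankyrin, an oncoprotein of HCC. PSMD10 had the highest mean of them per length, at 100.4, 109.9 and 100.6 CPM per kb in NC and 99.4, 108 and 112 CPM per kb in PON1-OE, and PSMD5 was the lowest, at 48.0, 53.8 and 51.3 CPM per kb in NC and 47.7, 50.7 and 49.9 CPM per kb in PON1-OE. PSMD9 was above PSMD10 in NC replicate 1, at 102 CPM per kb, and had the highest mean with the longest transcript as the length, so the order of PSMD9 and PSMD10 did not exceed the spread. PSMD9 shares exonic bases with other genes on its strand.

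None of the 4 activator genes was called. PSME1 and PSME2, which form the interferon-inducible PA28 ring, had log2 fold changes of -0.031 and -0.030, PSME3, the nuclear PA28 gamma, of -0.023, and PSME4, the PA200 activator, of 0.029, with adjusted p-values of 0.859 to 0.898. PSME3 was the highest per length, at 112, 110.5 and 113 CPM per kb in NC and 109.6, 112 and 109.1 CPM per kb in PON1-OE, followed closely by PSME2 and PSME1. PSME2 ranged from 94.98 to 112 CPM per kb in PON1-OE alone, so the order of these 3 did not exceed the spread. PSME4 was the lowest, at 11.8, 12.4 and 11.6 CPM per kb in NC and 11.8, 11.5 and 13.2 CPM per kb in PON1-OE. PSME1 was the highest with the other lengths.

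The inhibitor gene PSMF1 (PI31) was at 116 ± 3.77 CPM without and 119 ± 2.1 CPM with PON1 (SD, n = 3, log2 fold change 0.033, adjusted p = 0.846). The chaperones PSMG1 to PSMG4, which pair the alpha subunits while the core is built, had log2 fold changes of 0.070, -0.025, 0.0047 and 0.051 and adjusted p-values from 0.777 to 0.985. PSMG3 was the highest of them per length, at 60.9, 59.2 and 58.3 CPM per kb in NC and 58.5, 63.8 and 56.6 CPM per kb in PON1-OE. PSMG4 was the lowest of all members tested, at 10.6, 10.6 and 12.5 CPM per kb in NC and 11.4, 10.8 and 12.7 CPM per kb in PON1-OE.

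The symbol rule also took in 2 genes whose products are not proteasome subunits. PSMC3IP, which acts in homologous recombination and meiosis, was at 22.5, 22.8 and 23.2 CPM in NC and at 21.1, 20.4 and 22.5 CPM in PON1-OE. The groups did not overlap, by a gap of under 0.1 CPM (log2 fold change -0.098, unadjusted p = 0.231, adjusted p = 0.714), and none of its 6 values was a whole number. PSME3IP1, which binds PA28 gamma, had a log2 fold change of 0.050 (adjusted p = 0.835). Without these 2, the median of the members was 0.0098 and the count called at an adjusted p under 0.05 was 0.

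Genes of the pathway without a PSM name were taken from a list of 37, of which 36 were tested. None passed an adjusted p under 0.05, against 0.677% of all genes tested, and 2 had an unadjusted p under 0.05, against 11.1% of all genes. The groups did not overlap for 5 of the 36, TAP1 among them, 4 higher and 1 lower, against 16.1% of all genes. UBE3C, the ubiquitin ligase that extends chains on proteasome-bound substrates, was at 110.3, 101.5 and 103 CPM in NC and at 98.1, 90.4 and 91.6 CPM in PON1-OE. Its groups did not overlap, and the log2 fold change was -0.17 (95% interval -0.27 to -0.064, SE 0.050, unadjusted p = 0.00307, adjusted p = 0.168 by edgeR's quasi-likelihood test). AKIRIN2, which carries assembled proteasomes into the nucleus, was at 99.4, 92.0 and 100.04 CPM in NC and at 106, 100.4 and 108 CPM in PON1-OE. Its groups did not overlap by a narrow margin (log2 fold change 0.11, SE 0.050, unadjusted p = 0.0354, adjusted p = 0.406).

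The remaining list genes showed no call. The 7 genes of the NRF1 axis had log2 fold changes from -0.0087 to 0.079: NFE2L1 itself was at 315 ± 5.3 CPM without and 316 ± 7.83 CPM with PON1 (SD, n = 3, adjusted p = 0.977), and DDI2, the protease that cleaves NRF1, and NGLY1, which removes its glycans, had adjusted p-values of 0.985 and 0.722. Of the subunits and assembly factors without PSM names, ADRM1, a ubiquitin receptor, had a log2 fold change of -0.0053, SEM1, a lid subunit, of 0.069, and POMP, the maturation factor of the core, of 0.097, with adjusted p-values of 0.977, 0.694 and 0.744. The deubiquitinases USP14 and UCHL5 had log2 fold changes of -0.015 and -0.083. The 9 shuttle and segregase genes, among them VCP, which extracts ubiquitinated proteins, ran from -0.067 to 0.10, and the 6 ubiquitin and E1 genes, among them UBB and UBA1, ran from -0.027 to 0.067.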

How the data were processed

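The authors deposited a table of estimated counts, not normalized, for 3 PON1-OE and 3 NC libraries (15706672 to 17948383 per library), and 10.5% of all values were not whole. The submitters' processing notes name Bowtie2 2.2.8, HISAT2, StringTie 1.3.1 and DESeq2. Their roles, the genome build, the annotation, the counting tool and strandedness are not given in the sources used here. Estimated counts were rounded, filtered with filterByExpr and scaled by TMM. The test was edgeR's quasi-likelihood test without covariates (R 4.3.3, edgeR 4.0.16, limma 3.58.1, DESeq2 1.42.0), with Benjamini-Hochberg adjustment over 11958 genes. The design had been written for counts, and rounding was the step added. CPM are TMM-normalized. The fit was tested on simulated data.

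The members and lists were chosen with earlier results of these data known. Values per library are given for members with an unadjusted p under 0.05, the catalytic subunits, and the highest and lowest per length of each subcomplex, and for pathway genes without a PSM name that have an unadjusted p under 0.05 (at most 6 in each direction). Further genes were named after their values were seen. A few list genes are not reported here. Lists covered the subcomplexes, the NRF1 axis, interferon regulators and MHC neighbours, shuttles, deubiquitinases, ubiquitin genes, and markers of hepatocytes, leukocytes, fibroblasts and endothelium. Of these markers, COL1A1, COL1A2, VWF, CDH5, CD3E, LYZ, APOA1, TTR, SERPINA1 and PTPRC did not pass the filter, AFP was under 1.2 CPM in every library, and DCN and PECAM1 were at 3.40 to 6.69 and 12.6 to 15.9 CPM. Gene positions, lengths and shared exons (at least 50 bases) came from GENCODE v29 on GRCh38, in which 20126 of 20381 identifiers were found. Exons were shared on the same strand by 5 members and on the opposite strand by 19. Promoters came from RefSeq, GRCh38.p14. Pairs of libraries of a group differed beyond sampling noise (chi-square per degree of freedom 2.11 to 4.11, genes with at least 20 counts).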

Additional observations from a re-analysis of the deposited data

How the results depend on the processing

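No member passed an adjusted p under 0.05 under any of 13 alternatives: size factors of DESeq2, a minimum of 10 counts in every library or no filter, counts cut down to whole numbers, the replicate block, DESeq2, limma-voom and 6 fits without 1 library each. With DESeq2 some members, among them PSMB8, PSMB9, PSMB10 and PSMC3IP, had no adjusted p and could not pass. The 4 members higher at an unadjusted p under 0.05 became 2 with DESeq2 and 1 to 3 without 1 library. Lower calls went from 0 to between 0 and 3 without 1 library, the highest number without PON1-OE replicate 2. The shares of all genes under these alternatives are not given here. The median log2 fold change of the members was between -0.0021 and 0.038 without 1 library, the highest without PON1-OE replicate 1. Same-numbered libraries did not deviate together (correlations of 0.017, -0.023 and 0.020). This check cannot show how the libraries were made, so a pairing by number is not excluded. With the replicate block 2 members had an unadjusted p under 0.05. Of the 48 members, 25 changed sign in some setting, which for the catalytic subunits covered PSMB9 (5.58e-05 with counts cut down, -0.064 to 0.090 without 1 library), PSMB10 (-0.032 to 0.079 without 1 library) and PSMB6 (-0.056 to 0.011). With another length, 84 levels per length moved by over 1 SD. The merged exon lengths and the split of non-overlapping members and of log2 fold changes by direction were chosen after seeing the data. The causes were not tested. Depth limits PSMB9 more than most members, since it had only 197 to 269 counts per library.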
